A study of Mus musculus with 12 samples.

Results

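The mitochondrial carriers of the SLC25 family and the uncoupling proteins were followed in the aortae of mice, with and without a fast of 24 h. The members were all rows of a transcript table whose Ensembl transcript belongs, in the GENCODE M21 annotation, to a gene named Slc25a followed by a digit, or Ucp1, Ucp2 or Ucp3. Slc25a20, the carnitine carrier, was left out by the rule, and listed transcripts were summed per gene. The annotation holds 50 such genes, of which 39 were listed, through 66 transcripts, among 12287 genes in all. The other 11 (Slc25a31, Slc25a54, Slc25a13, Slc25a18, Ucp3, Slc25a21, Slc25a48, Slc25a41, Slc25a2, Slc25a53 and the pseudogene Slc25a5-ps) are not analysed here. All 39 listed members passed the filter on low values, at least 0.5 FPKM in at least 6 libraries. FPKM counts fragments per kilobase of transcript relative to the library total.

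The study holds 12 RNA-seq libraries of whole aorta, 6 from control mice and 6 from mice fasted for 24 h. All mice were C57BL/6 and 7 weeks old, and no allele or other agent is named for either group. Fat was dissected from the vessels before freezing, and RNA with poly(A) tails was sequenced. The labels do not say what the control mice ate or whether each library is a separate animal, so the p-values rest on the spread among these libraries, which may in part be technical.

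SLC25 carriers sit in the inner mitochondrial membrane, with a few in the outer membrane or in peroxisomes, and move nucleotides, phosphate, carboxylates, amino acids, vitamins and metal ions between the cytosol and the matrix. The ADP/ATP carriers and the phosphate carrier supply ATP synthase and export its product, so they are the abundant members in muscle. Uncoupling proteins are built on the same fold: UCP1 of brown fat lets protons return to the matrix and releases their energy as heat, whereas the action of UCP2 is less settled. The carriers are encoded in the nucleus and are inserted into the membrane by the TOM complex, the small TIM chaperones and the TIM22 complex.

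The phosphate carrier gene Slc25a3 holds a pair of mutually exclusive exons, shown here because the listed transcripts separate them: exon 3A belongs to the heart and skeletal muscle form and exon 3B to the form found in most tissues. On GRCm38, exon 3A lies at chr10:91122207-91122331 and exon 3B at chr10:91121922-91122043, both on the minus strand. They measure 125 and 122 bases, and 77 bases were identical in a global alignment, 63.1% of the aligned positions. In both lines capitals mark the bases that differ from the other exon or have no partner in it, read 5′ to 3′ on the strand of the gene.
exon 3A: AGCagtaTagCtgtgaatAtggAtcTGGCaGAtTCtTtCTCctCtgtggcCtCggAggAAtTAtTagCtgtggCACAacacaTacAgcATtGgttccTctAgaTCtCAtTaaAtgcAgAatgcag
exon 3B: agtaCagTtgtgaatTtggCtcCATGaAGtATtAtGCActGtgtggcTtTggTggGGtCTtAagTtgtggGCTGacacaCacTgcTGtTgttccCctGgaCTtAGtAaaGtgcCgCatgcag
Transcript Slc25a3-206 carries exon 3A, and Slc25a3-201 and Slc25a3-203 carry exon 3B.

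Upstream sequences are printed for 3 members that passed the threshold below. They are Slc25a34, the gene with the largest called difference, Ucp2, an uncoupling protein, and Slc25a1, the citrate carrier. Each sequence is the 250 bases before the RefSeq start of the gene on GRCm38.p6, read 5′ to 3′ on the strand of the gene. The match to one of 8 searched motifs is in capitals. The Slc25a34 window (chr4:141623835-141624084, minus strand) holds AGGTCA, a hexamer read by nuclear receptors, on the opposite strand, 119 bases before the start. The Ucp2 window (chr7:100493108-100493357, plus strand) holds a match to TCACNCCAC, a form of the SREBP site, 60 bases before the start. The Slc25a1 window (chr16:17928220-17928469, minus strand) holds the E-box CACGTG, 239 bases before the start. Not every called member had a match: the window of Slc25a28, not printed, held none of the 8 motifs.
Slc25a34: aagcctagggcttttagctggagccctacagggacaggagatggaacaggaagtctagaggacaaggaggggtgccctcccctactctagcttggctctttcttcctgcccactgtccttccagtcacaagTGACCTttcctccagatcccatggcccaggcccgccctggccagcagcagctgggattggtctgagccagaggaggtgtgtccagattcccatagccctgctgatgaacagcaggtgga
Ucp2: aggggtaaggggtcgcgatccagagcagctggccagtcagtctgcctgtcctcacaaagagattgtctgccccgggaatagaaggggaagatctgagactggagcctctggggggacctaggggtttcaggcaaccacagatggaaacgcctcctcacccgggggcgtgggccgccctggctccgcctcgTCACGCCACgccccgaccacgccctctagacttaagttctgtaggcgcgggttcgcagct
Slc25a1: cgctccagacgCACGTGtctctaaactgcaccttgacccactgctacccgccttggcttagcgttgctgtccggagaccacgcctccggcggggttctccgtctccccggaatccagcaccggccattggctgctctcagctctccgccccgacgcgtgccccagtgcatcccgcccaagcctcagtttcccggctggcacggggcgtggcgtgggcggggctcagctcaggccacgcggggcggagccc
RefSeq gave a promoter for 30 of the 39 members, and both strands of all 27025 promoters in the table were searched, with overlapping matches of different motifs each counted. AGGTCA occurred in 13.8% of all promoters and in 5 of the 30 member promoters (Slc25a34, Slc25a39, Slc25a45, Slc25a47 and Ucp1). TCACNCCAC occurred in 1.04% and in 1 member, and CACGTG in 6.05% and in 4 members (Slc25a1, Slc25a14, Slc25a33 and Slc25a36). AGAACA, the hexamer of glucocorticoid receptor sites, occurred in 16.2% and in 3 members (Slc25a17, Slc25a43 and Slc25a45), and the cAMP response element TGACGTCA in 1.62% and in 1 member (Slc25a36). GTAAACA, a FoxO site found in 3.09% of promoters, the core of the glucocorticoid receptor palindrome in 0.381% and the PPAR direct repeat of AGGTCA with 1 base between in 0.0370% had no match in the 30 windows. These matches describe letters in a window of 250 bases and not bound sites.

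Listed transcripts summed to between 299588 and 327492 FPKM per library, and the number of reads behind them is unknown. Smooth muscle markers were the most abundant of the marker lists, at a sum of 8717 to 10874 FPKM in controls and 8595 to 9845 FPKM in fasted aortae. Of 8 tested, Lmod1 and Synpo2 were higher and Cnn1 was lower. Markers of fat cells were present despite the dissection, and white and general adipocyte markers separated the groups: their sum ran from 134.9 to 212.1 FPKM (median 167.1) in controls and from 293.2 to 552.4 FPKM (median 363.3) in fasted aortae. Fasted replicate 3 and control replicate 6 held the most of their groups. Of 9 tested, 5 were higher and 0 lower; the 4 with the smallest p were Plin4, Fabp4, Lipe and Pck1, and Cidec was the fifth. Adipoq, the hormone that defines fat cells, went from a mean of 2.97 to 6.25 FPKM without passing (0.72, limma adjusted p = 0.164), Plin1 did not pass either (0.50, limma adjusted p = 0.205), and Lep was not listed. Heart muscle markers stood apart in fasted replicates 5 and 6, at sums of 247.3 and 187.7 FPKM, against 27.5 to 58.6 FPKM in controls, and 1 of 6 tested was higher (Tnnt2). Endothelial markers summed to 144.9 to 217.9 FPKM in controls and 194.3 to 272.3 FPKM in fasted aortae, with 1 of 8 higher (Pecam1) and 0 lower. Of the macrophage markers 1 of 7 was higher and 1 lower, of the fibroblast markers 2 of 7 were higher and 2 lower, and 0 of 3 skeletal muscle and 0 of 5 erythroid markers passed. Acta1, Atp2a1, Myh1, Myh4 and Mylpf of the skeletal muscle list were not listed. Beside these marker counts, 13.8% of all genes tested were higher and 17.9% lower. The part of the endothelial and fibroblast markers in the results below was not tested.

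After the fast 7 of the 39 carriers and uncoupling proteins were higher (17.9%) and 5 were lower (12.8%), on a background in which 13.8% of the 12063 genes tested were called higher and 17.9% lower. In all, 12 members were called, 30.8% against 31.7% of all genes, so carriers were called about as often as other genes. Slc25a34, Slc25a28, Slc25a27, Ucp2, Slc25a24, Slc25a33 and Slc25a46 were higher, and Slc25a43, Slc25a1, Slc25a35, Slc25a47 and Slc25a39 were lower. Called means an adjusted p under 0.05 from limma on log2(FPKM + 1), and every difference below is fasted minus control on that scale, with its SE, which understates the change of low genes. Their median difference was 0.03, against -0.02 for all genes tested. Groups did not overlap for 4 members (10.3%), 2 higher and 2 lower in fasted aortae, against 17.0% of all genes, 6.78% higher and 10.2% lower. The remaining 27 members did not pass, with differences from -0.88 to 1.48, and 18 of the 39 had an unadjusted p under 0.05. In whole aorta, more cells of a type and more RNA per cell cannot be told apart.

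**Figure D1:**
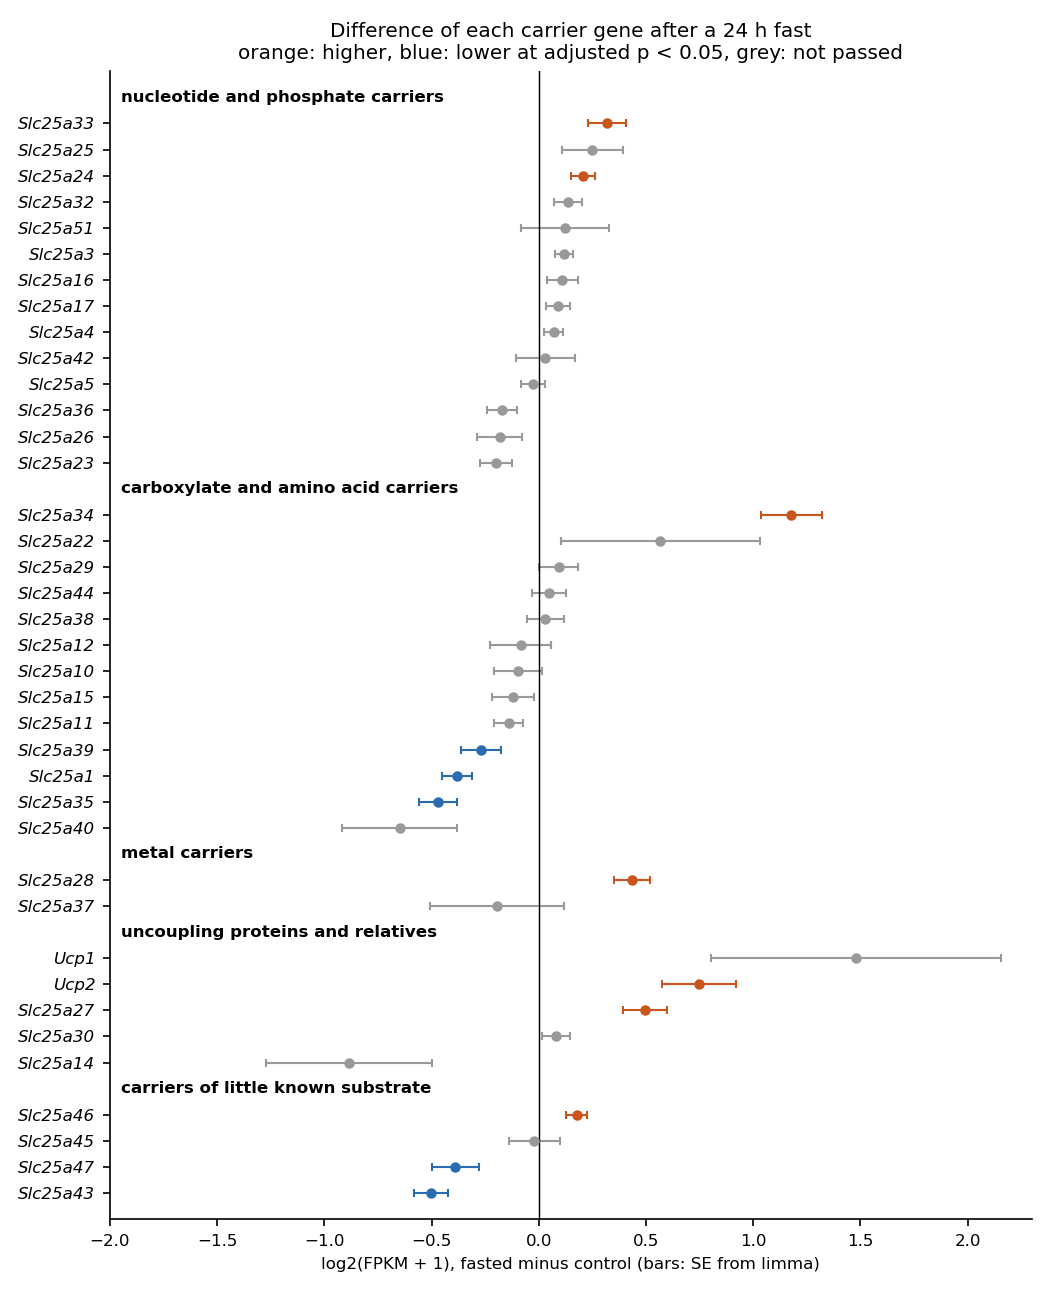
Difference of 38 members on the log2(FPKM + 1) scale, fasted minus control, with bars for the SE from limma and members grouped by what they carry. Orange points passed the threshold as higher, blue points as lower and grey points did not pass; Slc25a34 lies at 1.18, and the wide bar at 1.48 is Ucp1.

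The plot of levels shows Slc25a4, the ADP/ATP carrier of heart and muscle, at the top in both groups, with 178 ± 7.76 FPKM (controls) and 186 ± 8.15 FPKM (fasted; SD, n = 6 each). Slc25a5, the ADP/ATP carrier of proliferating tissues, followed at 97.96 ± 6.58 and 96.2 ± 6.07 FPKM, and Slc25a3 at 87.5 ± 4.51 and 94.99 ± 3.33 FPKM. These 3 genes of ATP synthesis held 53.2% ± 1.77 of the summed FPKM of the family in controls and 52.5% ± 2.24 in fasted aortae. In controls 13 members lay above 10 FPKM, 18 between 2 and 10 FPKM and 8 below 2 FPKM. The members summed to 682 ± 12.4 FPKM in controls and 719 ± 27.7 FPKM after the fast, and 5 of 6 fasted libraries lay above the highest control. Much of this rise was Slc25a34, which went from a mean of 17.9 to 41.6 FPKM. The median log2 difference of the members was 0.03, so the sum does not describe the family at large.

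**Figure D2:**
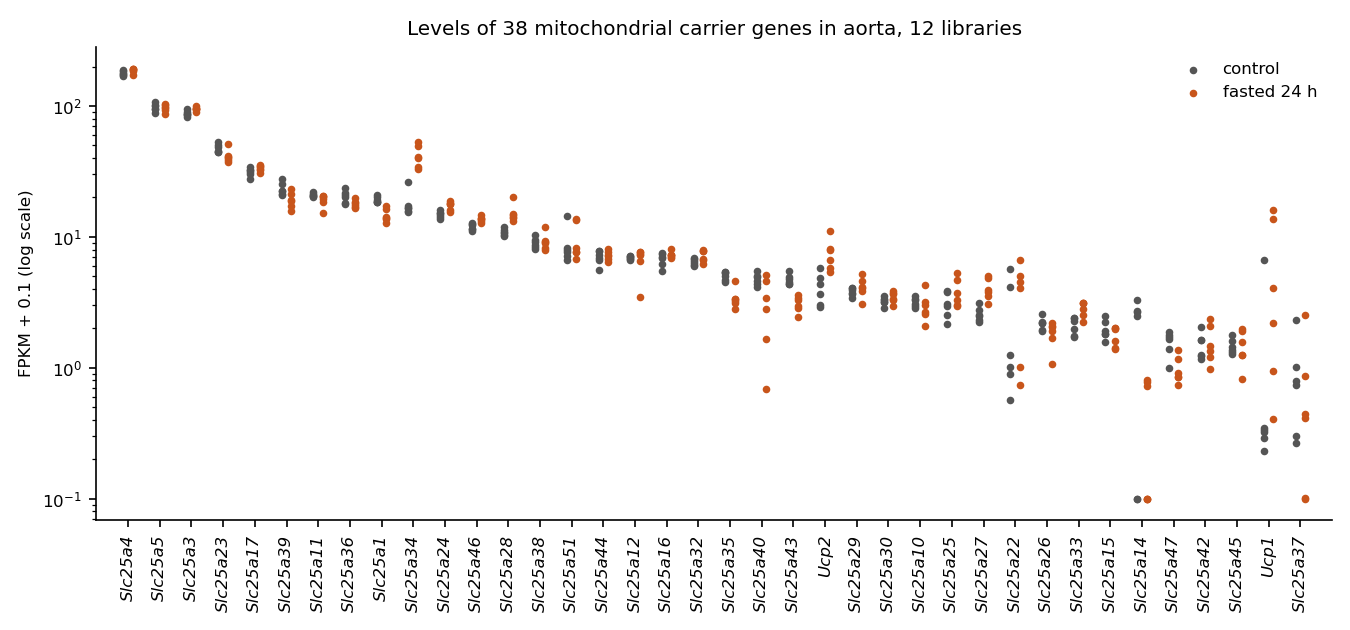
FPKM + 0.1 on a log axis of 38 members in 12 libraries, ordered by the control mean, with grey points for the 6 control and orange points for the 6 fasted libraries. Slc25a4 leads in both groups, Slc25a34 and Slc25a28 lie wholly above their controls, Slc25a43 and Slc25a1 wholly below them, and the points at the bottom are libraries in which Slc25a14 or Slc25a37 is listed at or near 0.

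Among 15 carriers of nucleotides, cofactors and phosphate, 2 were higher, 0 were lower and 13 did not pass. The shares of all genes were 13.8% higher and 17.9% lower. Slc25a24, which exchanges ATP-Mg for phosphate when cytosolic calcium rises and so sets the adenine nucleotide pool of the matrix, ran from 13.6 to 16.04 (median 14.8) FPKM in controls, and from 15.4 to 18.5 (median 17.7) FPKM in fasted aortae. Of 6 fasted libraries, 4 lay above the highest control and the groups overlapped. Slc25a24 was higher (0.21 ± 0.06, limma adjusted p = 0.0147). Slc25a33, a pyrimidine nucleotide carrier linked in cultured cells to insulin and IGF signalling, ran from 1.63 to 2.32 (median 2.02) FPKM in controls, and from 2.15 to 3.03 (median 2.85) FPKM after the fast. It lay above the highest control in 5 of 6 fasted libraries and was higher (0.32 ± 0.09, limma adjusted p = 0.0171). Its call was lost when fasted replicates 5 and 6, the libraries with the most heart muscle markers, were left out (0.26, adjusted p = 0.0855).

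The abundant carriers of ATP synthesis did not pass. Slc25a4 ran from 169 to 188 (median 176) FPKM in controls, and from 171 to 193 (median 189.6) FPKM in fasted aortae (0.07 ± 0.04, limma adjusted p = 0.256), and the Slc25a5 groups overlapped as well (-0.03 ± 0.06, limma adjusted p = 0.762). The sign of the Slc25a5 difference turned with median-of-ratios scaling (0.003). Slc25a3 ran from 81.5 to 95.1 (median 87.2) FPKM in controls, and from 89.8 to 100.2 (median 95.05) FPKM in fasted aortae. Its difference did not pass (0.12 ± 0.04, limma adjusted p = 0.0543). With median-of-ratios scaling, which divides each library by the median of its gene-wise ratios to a common reference, it passed (0.15, adjusted p = 0.0189), as it did without control replicate 5 or fasted replicate 1. Of its exons printed above, exon 3A made up 6.41% to 13.6% (median 7.44%) of Slc25a3 FPKM in controls and 7.04% to 16.2% (median 9.28%) in fasted aortae. The groups overlapped in the share of the heart and muscle form, and the highest shares were in control replicate 1 and fasted replicates 2 and 5. Heart muscle markers summed to 58.6, 54.1 and 247.3 FPKM in these 3 libraries. Fasted replicate 6, at 187.7 FPKM of heart muscle markers, had a share of 9.47%, near the fasted median, and the part of heart muscle RNA in the shares was not tested.

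Slc25a23, the second calcium-regulated ATP-Mg carrier, ran from 44.3 to 53.1 (median 46.9) FPKM in controls, and from 37.3 to 51.3 (median 40.2) FPKM in fasted aortae. Of the fasted libraries 5 lay below the lowest control, and only fasted replicate 3 did not. The difference (-0.20 ± 0.07, limma adjusted p = 0.0586) passed without that library (-0.26, adjusted p = 0.00296). Slc25a25, the third of these carriers, did not pass (0.25 ± 0.14, limma adjusted p = 0.205), nor did Slc25a36, the other pyrimidine nucleotide carrier (-0.17 ± 0.07, limma adjusted p = 0.078), which passed without control replicate 4 or fasted replicate 3. Other cofactor carriers did not pass: Slc25a42 for coenzyme A (0.03 ± 0.14, limma adjusted p = 0.893), Slc25a32 for folate and FAD, Slc25a26 for S-adenosylmethionine, Slc25a51 for NAD, Slc25a17 of the peroxisome and Slc25a16. Their differences lay between -0.18 for Slc25a26 and 0.14 for Slc25a32, which passed without fasted replicate 3.

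Among 13 carriers of carboxylates, amino acids and glutathione, 1 was higher, 3 were lower and 9 did not pass. Of all genes tested, 13.8% were higher and 17.9% lower. Slc25a34 (chr4:141618824-141623821, minus strand), a carrier whose substrate is not settled and whose sequence resembles the oxaloacetate carrier of yeast, ran from 15.3 to 26.3 (median 16.4) FPKM in controls, and from 33.03 to 53.3 (median 40.1) FPKM in fasted aortae. All fasted libraries lay above all controls, and control replicate 1 was the highest control by a wide margin. The means of 17.9 ± 4.17 and 41.6 ± 8.05 FPKM differed 2.33-fold, and the difference passed (1.18 ± 0.14, limma adjusted p = 7.14e-05). It was the only member called with a log2 difference of at least 1.

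Slc25a35, a related carrier, also of unsettled substrate, went the other way. It ran from 4.41 to 5.31 (median 5.04) FPKM in controls, and from 2.72 to 4.47 (median 3.19) FPKM in fasted aortae, with 5 of 6 fasted libraries below the lowest control and fasted replicate 3 within the control range. It was lower (-0.47 ± 0.09, limma adjusted p = 0.00144). Rangrf, which overlaps Slc25a35 on the opposite strand, did not pass (-0.16, limma adjusted p = 0.387).

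Slc25a1 (chr16:17925223-17928219, minus strand), the citrate carrier that brings citrate to the cytosol for the synthesis of fatty acids and sterols, ran from 18.2 to 20.8 (median 18.7) FPKM in controls, and from 12.7 to 16.97 (median 13.9) FPKM in fasted aortae. The groups did not overlap. Slc25a1 was lower (-0.38 ± 0.07, limma adjusted p = 0.00127). Acly and Me1, enzymes that use cytosolic citrate and malate, were lower beside it. Acly, which cleaves citrate to acetyl-CoA, went from a mean of 29.0 to 21.1 FPKM (-0.45, limma adjusted p = 0.000675). Me1, the malic enzyme that yields NADPH, went from 31.6 to 24.2 FPKM (-0.37, limma adjusted p = 0.000288).

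Slc25a39, needed for the import of glutathione into mitochondria, ran from 20.6 to 27.4 (median 22.3) FPKM in controls, and from 15.6 to 23.03 (median 18.8) FPKM in fasted aortae. Of the fasted libraries 4 lay below the lowest control. Among the called members its difference was the closest to the threshold (-0.27 ± 0.09, limma adjusted p = 0.0447). The call was lost in 8 of the 12 fits that left out 1 library, with an adjusted p of up to 0.0929, and with median-of-ratios scaling (-0.24, adjusted p = 0.0688). Slc25a40, its paralogue, had the same sign without passing (-0.65 ± 0.27, limma adjusted p = 0.0845), and fasted libraries spread from 0.586 to 5.04 FPKM. It passed without fasted replicate 2 (-0.80) or fasted replicate 3 (-0.77), and shrank without fasted replicate 6 (-0.41, limma adjusted p = 0.115) and without fasted replicates 5 and 6 together (-0.23, limma adjusted p = 0.22).

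The carriers of the malate and aspartate shuttle did not pass. Slc25a11, the oxoglutarate/malate carrier, had a negative difference (-0.14 ± 0.07, limma adjusted p = 0.129), and Slc25a12, the aspartate/glutamate carrier of excitable tissues, one near 0 (-0.08 ± 0.14, limma adjusted p = 0.696). Slc25a10, the dicarboxylate carrier, did not pass (-0.10 ± 0.11, limma adjusted p = 0.549). The other amino acid carriers did not pass either: Slc25a15 for ornithine, Slc25a22 for glutamate, Slc25a29 for basic amino acids, Slc25a38 for glycine and Slc25a44 for branched-chain amino acids, with differences from -0.12 (Slc25a15) to 0.57 (Slc25a22).

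Of the mitoferrins, which bring iron into the matrix for heme and iron-sulfur clusters, the widely expressed one was higher. Slc25a28, mitoferrin-2, ran from 10.1 to 11.7 (median 10.7) FPKM in controls, and from 13.2 to 19.9 (median 14.2) FPKM in fasted aortae. The groups did not overlap, and fasted replicate 3 was the highest fasted library. Slc25a28 was higher (0.44 ± 0.08, limma adjusted p = 0.00177). Slc25a37, mitoferrin-1 of red cell precursors, was listed at 0.639, 0.912, 2.21, 0.199, 0.693 and 0.164 FPKM in control replicates 1 to 6 and at 2.41, 0, 0.00131, 0.346, 0.764 and 0.310 FPKM in fasted replicates 1 to 6. It was low and uneven in both groups and did not pass (limma adjusted p = 0.681). Fech, a partner enzyme that inserts iron into heme, was higher (0.17, limma adjusted p = 0.0126).

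Of 5 uncoupling proteins and relatives, 2 were higher and 0 were lower, beside 13.8% of all genes higher and 17.9% lower. Ucp2, found in many tissues and induced by fatty acids in several of them, ran from 2.80 to 5.63 (median 3.90) FPKM in controls, and from 5.33 to 10.98 (median 7.19) FPKM in fasted aortae. Of the fasted libraries 5 lay above the highest control. Macrophages also make Ucp2, and their markers summed to 153.2 to 253.3 FPKM in controls and 152.9 to 276.2 FPKM in fasted aortae, with overlap. Of the 7 markers Cd163 was higher (0.92, limma adjusted p = 0.00942), Adgre1 was lower (-0.46, limma adjusted p = 0.029) and 5 did not pass. Within each group Ucp2 and the macrophage sum were high in the same libraries: fasted replicates 5, 6 and 4 led in both, control replicates 4 and 2 led in both, and control replicate 1 was lowest in both. The endothelial marker sum was also highest in control replicates 4 and 2, at 217.9 and 170.3 FPKM. Among fasted libraries it was highest in replicates 5 and 4, at 272.3 and 249.1 FPKM, while replicate 6 held 213.4 FPKM. The parts of macrophage and endothelial RNA in the Ucp2 difference were not tested. The means of 3.98 ± 1.10 and 7.39 ± 2.06 FPKM differed 1.86-fold (0.75 ± 0.17, limma adjusted p = 0.00544). Slc25a27, named UCP4 and best known from brain, ran from 2.13 to 3.02 (median 2.40) FPKM in controls, and from 2.96 to 4.88 (median 3.75) FPKM after the fast. It too lay above the highest control in 5 of 6 fasted libraries and was higher (0.49 ± 0.10, limma adjusted p = 0.00298). Slc25a30, a further relative, did not pass (0.08 ± 0.07, limma adjusted p = 0.395).

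Ucp1 was uneven in both groups. Control replicates 1 to 6 held 0.130, 0.192, 0.245, 0.221, 0.237 and 6.52 FPKM, and fasted replicates 1 to 6 held 13.5, 3.95, 15.8, 0.305, 2.08 and 0.845 FPKM. Of the controls 5 lay at or below 0.245 FPKM, all 6 fasted libraries lay above those 5, and control replicate 6 exceeded 4 of the 6 fasted libraries. The difference was the largest of the family and did not pass (1.48 ± 0.68, limma adjusted p = 0.115). Other brown adipocyte markers without Ucp1 summed to 32.5 to 53.7 FPKM in controls and 45.9 to 76.3 FPKM in fasted aortae. Of the 5 tested in the list, Ucp1 included, 1 was higher (Cidea, from a mean of 10.4 to 18.3 FPKM). Dio2 held the largest part of this sum, with means of 29.2 and 30.2 FPKM, and did not pass. Cox8b and Cox7a1 did not pass either. The sum was highest in control replicate 6 and in fasted replicates 3 and 1, the same libraries that held the most Ucp1. Adrb3, Elovl3 and Otop1 were not listed.

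Slc25a14, named UCP5, was listed at 2.58, 0, 2.40, 3.19, 0 and 2.63 FPKM in control replicates 1 to 6 and at 0.673, 0.713, 0, 0, 0.627 and 0 FPKM in fasted replicates 1 to 6. It was listed at 0 in 2 control and 3 fasted libraries. Slc25a14-202 and Slc25a14-208, with control means of 0.648 and 0.563 FPKM, were at 0 in all 6 fasted libraries. The fasted values rest on Slc25a14-201 alone. Each of the 3 listed transcripts reached the deposited list, where the higher group mean is at least 0.5 FPKM, only through the controls. Slc25a14 did not pass (limma adjusted p = 0.0988), but did without control replicate 2 or control replicate 5, the controls at 0. Because the listing rested on high controls, these fits cannot show a fall.

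Of 4 carriers with little known substrate, 1 was higher and 2 were lower, beside 13.8% of all genes higher and 17.9% lower. Slc25a43 (chrX:36743659-36777202, plus strand) ran from 4.27 to 5.36 (median 4.56) FPKM in controls, and from 2.36 to 3.47 (median 3.04) FPKM in fasted aortae. The groups did not overlap. Slc25a43 was lower (-0.50 ± 0.08, limma adjusted p = 0.00043). Slc25a47, best known from liver, ran from 0.888 to 1.79 (median 1.58) FPKM in controls, and from 0.642 to 1.27 (median 0.782) FPKM in fasted aortae. It was low throughout, with 4 of 6 fasted libraries below the lowest control, and was lower (-0.39 ± 0.11, limma adjusted p = 0.0167). Slc25a46, a protein of the outer membrane that shapes mitochondria, ran from 10.99 to 12.7 (median 11.8) FPKM in controls, and from 12.6 to 14.5 (median 13.6) FPKM after the fast. It lay above the highest control in 5 of 6 fasted libraries and was higher (0.18 ± 0.05, limma adjusted p = 0.0174). Slc25a45 did not pass (-0.02 ± 0.12, limma adjusted p = 0.919).

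**Figure D3:**
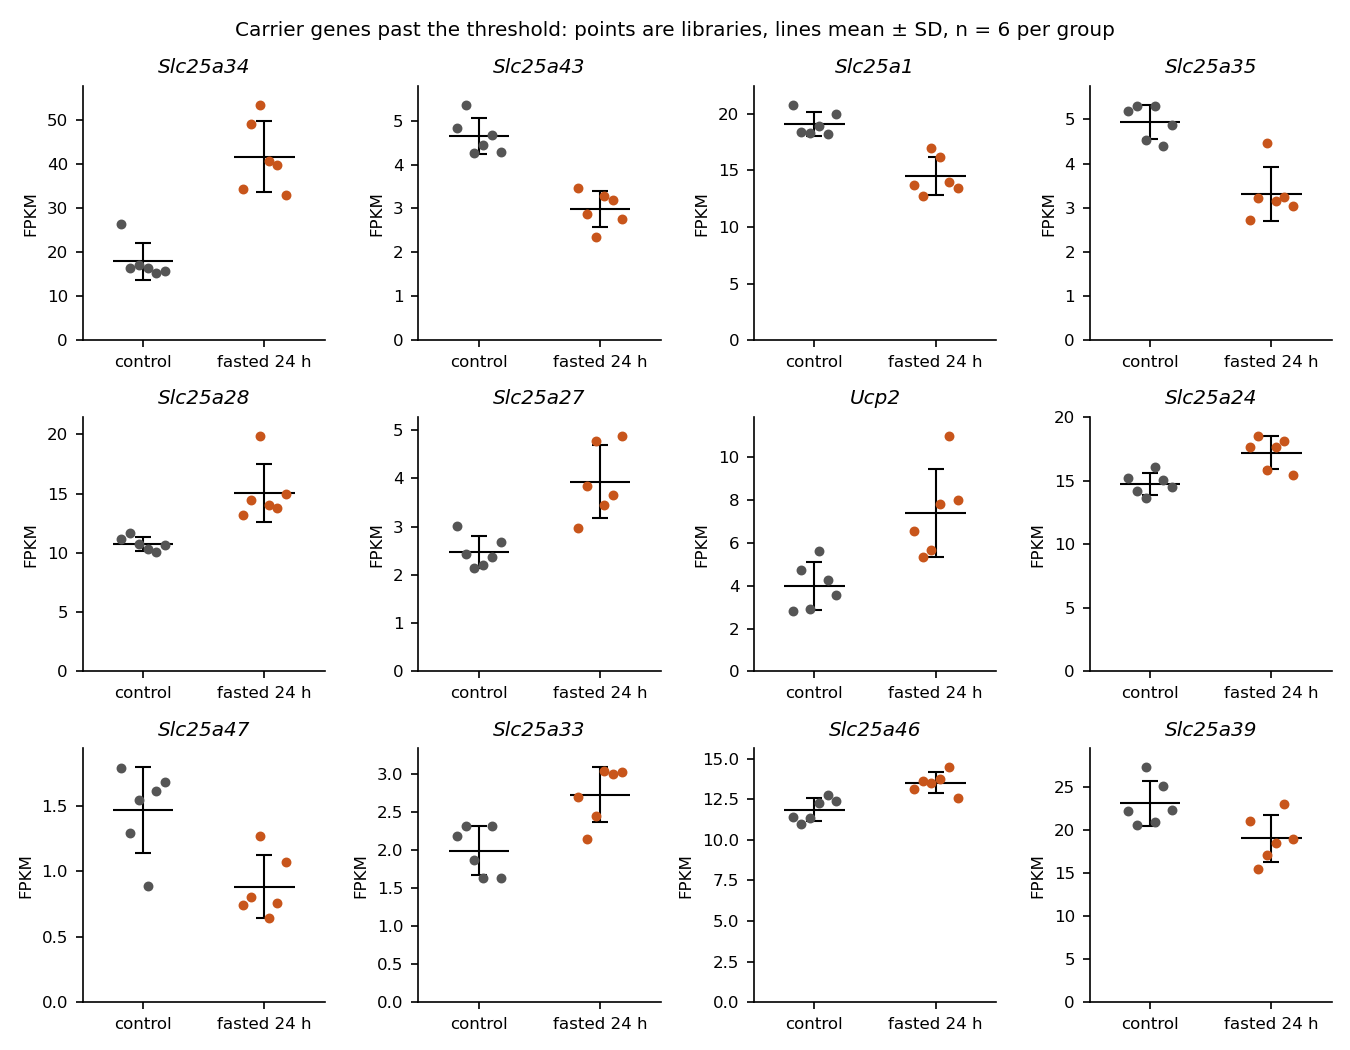
FPKM of the 12 members that passed the threshold, in 6 control (grey) and 6 fasted (orange) libraries, with black lines for the mean ± SD and each axis starting at 0. The groups are apart for Slc25a34, Slc25a43, Slc25a1 and Slc25a28 and overlap for the other 8.

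Because the sum of the white and general adipocyte markers separated the groups, the fit was repeated with 2 covariates, the mean log2 level of these markers and that of the brown ones without Ucp1. Fabp4 and Plin4 hold most of that sum, with means of 67.8 and 67.6 FPKM in controls and 195.1 and 119.5 FPKM in fasted aortae. Adipoq, Cfd and Plin1 overlapped between the groups and did not pass, and not every marker of the list had a positive difference. Slc25a34 (0.99, adjusted p = 0.0116) and Ucp2 (0.97, adjusted p = 0.0289) stayed higher, and Slc25a43 (-0.41, adjusted p = 0.0384), Slc25a1 (-0.56, adjusted p = 0.00115) and Slc25a35 (-0.62, adjusted p = 0.00791) stayed lower. The other 7 calls were lost, while all kept their sign: Slc25a28, Slc25a27, Slc25a24, Slc25a33 and Slc25a46, so that 2 remained higher, and Slc25a47 and Slc25a39 of the lower ones. Their adjusted p lay between 0.051 (Slc25a33) and 0.319 (Slc25a39). Differences were as large or larger with the covariates for Slc25a24 (0.22, against 0.21), Slc25a33 (0.42, against 0.32) and Slc25a47 (-0.49, against -0.39), and smaller for Slc25a27 (0.47, against 0.49), Slc25a28 (0.29, against 0.44), Slc25a46 (0.14, against 0.18) and Slc25a39 (-0.22, against -0.27). Slc25a23 (-0.34, adjusted p = 0.0395) and Slc25a40 (-1.22, adjusted p = 0.04) passed as lower in this fit. Ucp1 turned to -0.23, adjusted p = 0.758. Among all genes 1961 were called in it (16.3%, against 31.7% without covariates). The white marker sum and the fast separate the libraries in the same way, and with this design their parts cannot be told apart. Some of the markers that passed, such as Fabp4 of endothelium and Pck1, are also known to be made outside fat. Leaving out control replicate 6 and fasted replicate 3, which held the most of these markers in their groups, kept 11 of the 12 calls and lost Slc25a39 (-0.25, adjusted p = 0.0988). Leaving out fasted replicates 5 and 6, which held the most heart muscle markers, also kept 11 and lost Slc25a33.

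**Figure D4:**
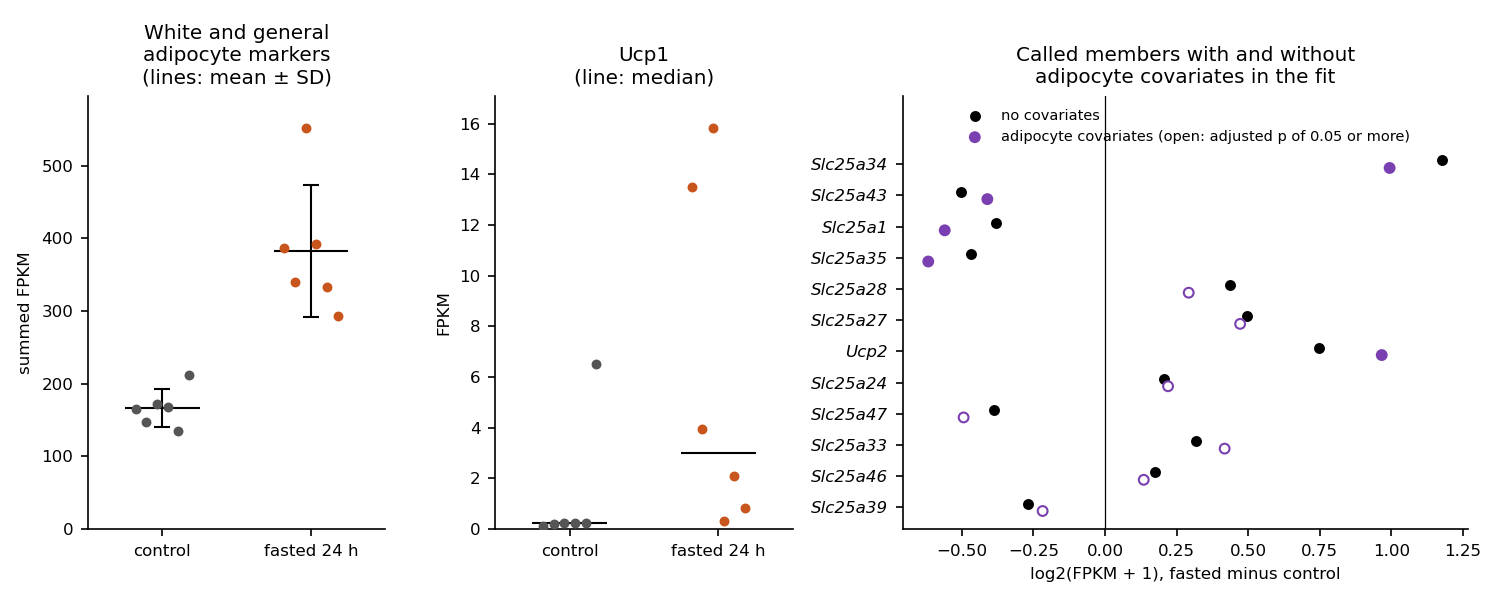
Left, summed FPKM of the white and general adipocyte markers, and middle, FPKM of Ucp1, in 6 control (grey) and 6 fasted (orange) libraries; the lines are the mean ± SD on the left and the median in the middle. Right, the log2(FPKM + 1) difference of the 12 called members without covariates (black) and with adipocyte covariates (purple, open where the adjusted p was 0.05 or more): all kept their sign, and 5 stayed past the threshold.

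Ratios within a library do not depend on how that library was scaled, and 5 of 9 pairs of related carriers could be compared in this way, with both genes at 0.5 FPKM or more in every library. The balance of the calcium-regulated ATP-Mg carriers shifted: Slc25a23/Slc25a24 ran from 2.79 to 3.75 (median 3.30) in controls and from 2.06 to 3.24 (median 2.24) in fasted aortae. Of the fasted libraries 5 lay below the lowest control, and fasted replicate 3 lay within the control range (log2 difference -0.42, two-sided exact permutation p = 0.00866, adjusted p = 0.0216). The pyrimidine carriers shifted as well: Slc25a33/Slc25a36 ran from 0.0692 to 0.128 (median 0.1001) in controls and from 0.124 to 0.182 (median 0.159) in fasted aortae. Here 4 of 6 fasted libraries lay above the highest control (log2 difference 0.64, two-sided exact permutation p = 0.00649, adjusted p = 0.0216). The ratio of the ADP/ATP carriers, Slc25a4/Slc25a5, went from 1.82 ± 0.0977 to 1.94 ± 0.0888 and did not pass (log2 difference 0.10, two-sided exact permutation p = 0.0368, adjusted p = 0.0613). It passed without control replicate 6 (0.12, exact permutation adjusted p = 0.0253) or fasted replicate 2 (0.11, adjusted p = 0.0361). Slc25a24/Slc25a25 and Slc25a16/Slc25a42 did not pass (exact permutation adjusted p = 0.712 for each). The smallest p that the 924 splits allow is 0.00216, and p-values were adjusted over the 5 pairs.

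**Figure D5:**
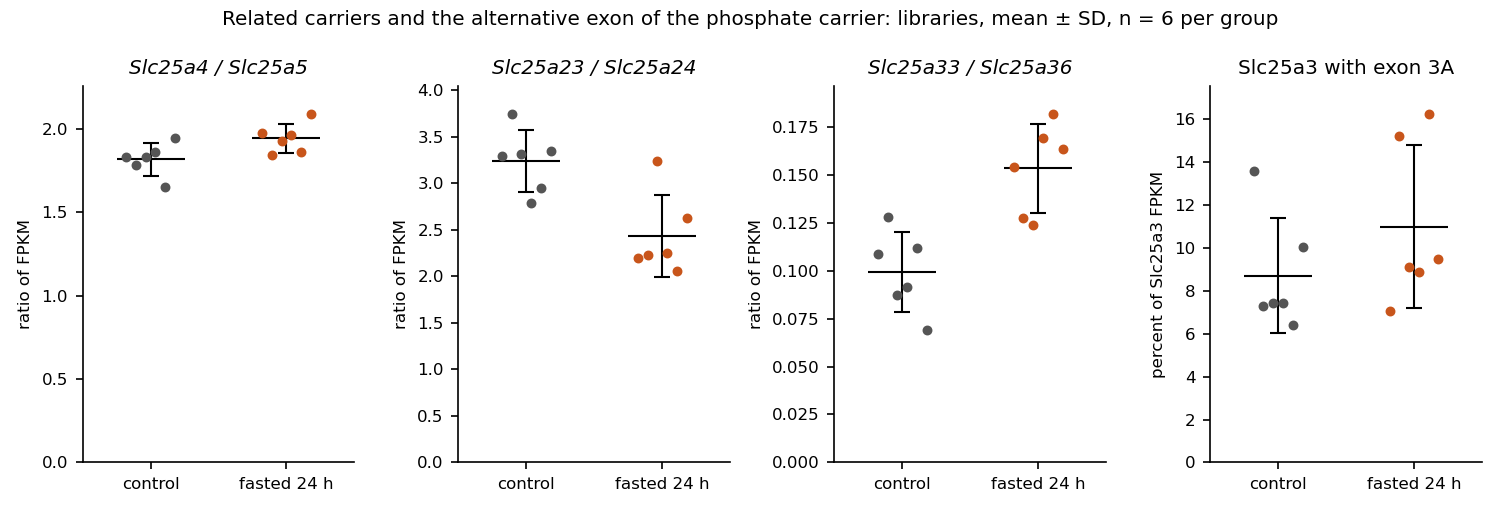
Ratio of FPKM of Slc25a4 to Slc25a5, Slc25a23 to Slc25a24 and Slc25a33 to Slc25a36, and the percent of Slc25a3 FPKM in the transcript with exon 3A, in 6 control (grey) and 6 fasted (orange) libraries, with black lines for the mean ± SD. The groups overlap in all 4 panels: 5 of 6 fasted libraries lie below the lowest control for Slc25a23/Slc25a24, and 4 of 6 above the highest control for Slc25a33/Slc25a36.

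Of the 66 member transcripts, 53 passed the filter, 7 were higher (13.2%) and 4 were lower (7.55%), against 7.19% and 8.98% of the 20599 transcripts tested. The called share of 20.8% stood against 16.2% of all transcripts. All 11 belong to members called as genes, and 9 are the only listed transcript of theirs; leaving out control replicate 3, fasted replicate 4 or fasted replicate 5 reduced the higher ones to 4. Slc25a1-201, the main citrate carrier transcript, was lower (-0.39 ± 0.07, limma adjusted p = 0.00381). For Slc25a35 the loss was in Slc25a35-202 (-0.59 ± 0.12, limma adjusted p = 0.00486), while Slc25a35-201 did not pass (-0.06 ± 0.07, limma adjusted p = 0.638). The share of Slc25a35-202 in its gene went from 74.6% ± 3.23 to 64.3% ± 5.31, which did not pass among all shares (limma adjusted p = 0.177). None of the 28 shares from 10 members passed in limma, with 3 at an unadjusted p under 0.05, and 0.362% of the 14107 shares tested were called.

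In each of 2 pairs of members that lie close together in the genome, 1 was called. Slc25a29 and Slc25a47 are 162 bases apart on chromosome 12, with differences of 0.09 (not passed) and -0.39 (lower). Slc25a43 and Slc25a5 are 18448 bases apart on the X chromosome, with differences of -0.50 (lower) and -0.03 (not passed). Beside Slc25a35, the called members Ucp2, Slc25a33 and Slc25a46 overlap a gene on the other strand (Dnajb13, Gm13068 and B930094E09Rik), and the use of strand in the authors' quantification is not stated.

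Of 16 tested genes of the machinery that inserts carriers 7 were lower, 1 was higher and 8 did not pass, beside 17.9% of all genes lower and 13.8% higher. Their median difference was -0.25, against -0.02 for all genes. Agk, a subunit of the TIM22 complex that inserts carriers into the inner membrane, went from a mean of 7.06 to 5.34 FPKM (-0.34, limma adjusted p = 0.000127). Timm10, a small chaperone that escorts carriers across the intermembrane space, went from 12.1 to 8.20 FPKM (-0.51, limma adjusted p = 0.000147). Tomm6, a small subunit of the outer membrane pore, was lower (-0.49, limma adjusted p = 0.00393), and the receptor Tomm20 was the one that was higher (0.20, limma adjusted p = 0.00276). Timm13, Timm8b, Tomm7 and Tomm5 were also lower.

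Of 23 other genes of mitochondrial membrane transport 5 were higher and 3 were lower, with a median of 0.00. Of all genes, 13.8% were higher and 17.9% lower. Sfxn2, a sideroflexin, went from 3.37 to 5.92 FPKM (0.66, limma adjusted p = 0.000297), and Sfxn3, a further sideroflexin, was higher (0.21, limma adjusted p = 0.00666). Micu2, a gatekeeper of the calcium uniporter, was lower (-0.32, limma adjusted p = 0.00317), as was Abcb8, an ABC transporter of the inner membrane (-0.47, limma adjusted p = 0.00442). Of 25 tested enzymes that make or use what the carriers move 3 were higher and 6 were lower, with a median of -0.06. The all-gene shares of 13.8% and 17.9% stand beside these counts too. Beside Acly, Me1 and Fech given above, Oat, the ornithine aminotransferase of the matrix, went from 191 to 145 FPKM (-0.40, limma adjusted p = 0.000791). Got2 and Shmt2 were lower, and Mdh2 and Ass1 were higher. Arg2 was not listed, and Nnt was listed as 2 gene records, neither of which passed.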

How the data were processed

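Vessels were freed of fat and frozen, RNA was taken up in Trizol, and strand-specific KAPA libraries of poly(A) RNA were sequenced as read pairs on a NovaSeq, per the labels' protocols. The submitters' processing notes name FastQC, cutadapt, HISAT2, StringTie and GRCm38; of settings and annotation release nothing is stated. FPKM values of 22699 transcripts were deposited by the authors. In each, the group with the higher mean reached 0.5 FPKM or more. Depth is unknown, so no counting interval was computed. GENCODE M21, which may differ from the authors' release, matched 21493 identifiers with their version, 1162 with another version and left 44 unmatched. Gene values sum the listed transcripts, and 24 members rest on 1 transcript.

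The filter of 0.5 FPKM in 6 libraries left 12063 genes for limma 3.58.1 (R 4.3.3; lmFit, then eBayes with trend), two-sided on log2(FPKM + 1). P-values were adjusted by Benjamini and Hochberg over all of them, with a threshold of 0.05. The transcript test was the same. Isoform shares entered limma as arcsine square roots, from genes of 1 FPKM or more throughout that have 2 or more transcripts averaging 0.5 FPKM. Paralogue ratios had exact permutation tests. The tests were checked on simulated data. The members and lists were chosen with earlier results of these data known. Named are all members past the threshold, 12 fixed symbols where listed (Ucp1, Ucp2, Ucp3, Slc25a1, Slc25a3, Slc25a4, Slc25a5, Slc25a10, Slc25a25, Slc25a34, Slc25a37 and Slc25a42) and the 4 smallest p of each pathway list; others were named after their values were seen. Values of 1 member and a few list genes, though counted, are not reported here. Alternatives covered the pseudocount, the filter, scaling, adipocyte covariates, a replicate block, the most abundant transcript alone and each library left out.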

Additional observations from a re-analysis of the deposited data

Results flagged for a closer look

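In 11 of the 76 groups of 6 libraries (38 members, each in controls and in fasted aortae), 1 library lay apart from the other 5 by Dixon's criterion. Chance gives about 1 in 20 for independent groups of normally distributed values. FPKM of low members such as Ucp1 and Slc25a37 is skewed, and the members share libraries. The 11 therefore cannot be read against that rate. Fasted replicate 3, the fasted library with the most adipocyte markers, was the high one in 4 of the 11: Slc25a28 at 19.9 FPKM (next 14.97), Slc25a35 at 4.47 FPKM (next 3.25), Slc25a23 at 51.3 FPKM (next 41.2) and Slc25a38 at 11.8 FPKM (next 9.13). The part of adipocyte RNA in these values was not tested. Control replicate 6, the control with the most adipocyte markers, was high in Ucp1 at 6.52 FPKM (next 0.245) and in Slc25a51 at 14.4 FPKM (next 8.11). Slc25a34 was at 26.3 FPKM in control replicate 1 (next 17.1), which is still below the lowest fasted library. Slc25a16 was at 8.02 FPKM in fasted replicate 1 (next 7.20). Slc25a37 was at 2.21 FPKM in control replicate 3 (next 0.912) and at 2.41 FPKM in fasted replicate 1 (next 0.764). Slc25a12 was low in fasted replicate 2, at 3.37 FPKM (next 6.45).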

How the results depend on the processing

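Leaving out each library in turn gave 7 to 8 higher and 4 to 7 lower members. The count of member transcripts higher ran from 4 to 7. Adipocyte covariates left 2 members higher, and 1 transcript higher and 2 lower; median-of-ratios scaling gave 8 higher and 4 lower members. The other pseudocounts and filters left the member counts at 7 higher and 5 lower. The labels do not say whether libraries with the same replicate number were paired. Correlations of same-numbered deviations ran from -0.006 to 0.084, and 2 of 6 matched their own number best. Such correlations cannot settle whether the libraries were paired. With the replicate block 6 members were higher and 5 lower; Slc25a33 lost its call (limma adjusted p = 0.0516), and the Slc25a23/Slc25a24 ratio (log2 -0.42, exact permutation adjusted p = 0.0781) and the Slc25a33/Slc25a36 ratio (0.64, exact permutation adjusted p = 0.104) did not pass; their size was the same, and the 64 sign flips of this test give no p below 0.0312 before adjustment. Without 1 library the ratios ran from 0.0689 to 0.12 (Slc25a4/Slc25a5), -0.18 to 0.0134 (Slc25a24/Slc25a25) and -0.0441 to 0.25 (Slc25a16/Slc25a42). Signs turned for members that did not pass, here for those reported. Without 1 library these ran from -0.00748 to 0.0788 (Slc25a44), -0.13 to 0.067 (Slc25a12), -0.0549 to 0.00322 (Slc25a5), -0.0382 to 0.0665 (Slc25a38), -0.0531 to 0.11 (Slc25a42) and -0.0798 to 0.0677 (Slc25a45). With adipocyte covariates Ucp1 was -0.23, Slc25a29 -0.0776, Slc25a37 0.0563, Slc25a51 -0.37, Slc25a44 -0.0522, Slc25a5 0.0187, Slc25a38 -0.11 and Slc25a42 -0.00402. With median-of-ratios scaling Slc25a5 was 0.00322. With the most abundant transcript alone Slc25a36 was 0.0248. In a setting chosen after seeing the data, Slc25a38 was -0.0467 without the libraries richest in adipocyte RNA. The cause of these changes was not tested. Unknown depth limits the low members most.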
